A study of Mus musculus with 6 samples.

Results

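The genes described here are 8 enzyme genes of heme biosynthesis, Alas1, Alas2, Alad, Uros, Urod, Cpox, Ppox and Fech. They were taken by name from the pathway and not by their measured values, although earlier results of these data were known. They are 8 of the 25700 genes counted in each library. Bone marrow of C57BL/6J mice, which were 8 to 10 weeks of age, was differentiated into bone marrow-derived macrophages (BMDMs) in medium with 100 ng/ml M-CSF, the growth factor that drives macrophage differentiation. On day 3 the heme cultures received 300 μM heme-albumin and the control cultures albumin, the carrier alone, and RNA was taken on day 7 for bulk RNA-Seq. Each group had 3 libraries, and each library represents macrophages of 1 mouse. The labels do not say whether a control and a heme library came from the same animal. All mice were of the same strain, with no transgene or deletion named.

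Heme is built from glycine and succinyl-CoA in a pathway that starts and ends in the mitochondrion and runs through the cytosol in between. The first step is catalyzed by 5-aminolevulinate synthase (ALAS), which exists as ALAS1, the form of most cells, and ALAS2, the form of erythroid cells. In liver, heme is known to repress the synthesis, mitochondrial import and stability of ALAS1, which makes this step the textbook example of control of a pathway by its product. Macrophages take up heme from red blood cells and break it down with heme oxygenase 1. The comparison of heme with control cultures asks how the transcripts of the enzymes that make heme stood in macrophages that were given heme from outside.

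The libraries held 27201038 to 32994595 counts. Levels are given as CPM, the counts of a gene scaled to library size, after TMM normalization, which assumes that most genes do not shift. Differences were tested with edgeR's quasi-likelihood test over the 12433 genes that passed its filter on low counts, and a gene was called at a Benjamini-Hochberg adjusted p under 0.05. The median log2 fold change of all tested genes was 0.00 with TMM and -0.22 with library sizes alone. Macrophage markers were abundant, with 31772 to 37561 summed CPM over 8 markers in the control libraries and 36227 to 39501 in the heme libraries. Of the 8 genes 6 fell and 1 rose, and without Lyz2, the most abundant of them, the sums were 6607 to 7319 in control and 5239 to 5544 in heme libraries. Of all tested genes 30.8% were called lower and 31.7% higher. The difference of this and the following marker lists from that background was not tested. Of 11 tested neutrophil markers 9 were higher with heme and 1 lower, with 1388 to 1533 summed CPM over 14 genes against 90.8 to 157.5 in control libraries. Mmp8 alone made up most of that sum, and without it the sums were 132.9 to 176.6 against 62.0 to 121.1. Most of these control sums was Csf3r, the 1 gene called lower, at 50.8, 105.8 and 68.9 CPM in control and 32.9, 41.8 and 31.9 CPM in heme libraries. Mpo went from 0, 0 and 1 counts to 406, 612 and 795 counts. Elane had 0 counts in each control library and 81, 94 and 141 counts in the heme libraries. Both passed the filter through the heme libraries alone. Of the megakaryocyte markers, 3 of 5 tested were higher, with 270.2 to 307.9 summed CPM over 7 genes against 107.7 to 114.6, but without Pf4 the sums overlapped, at 83.4 to 94.6 with heme and 65.5 to 88.5 in control. Mast cell and basophil markers stayed near 0 (8 genes, 2.61 to 4.11 against 0.179 to 0.55 summed CPM, or 1.21 to 2.49 against 0.119 to 0.428 without Gata2), with Tpsb2 and Cma1 at 0 in every library. The 3 tested genes of this list were all higher. They passed the filter largely through their counts in the heme libraries, so that this direction was largely fixed beforehand. With a filter of at least 1 CPM in 3 libraries, no gene of this list was called. Whether these markers came from other cells or from the macrophages themselves was not tested. The part of any other cells in the enzyme results was not tested either. In bulk RNA, a change in the number of cells of a type and a change in RNA per cell cannot be told apart.

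Of the 8 enzyme genes, 7 passed the filter. Among these 7, 6 were called, which compares with 62.5% of all tested genes. Alas1, Uros, Cpox and Fech rose, 4 of 7 against a background of 31.7% called higher, and Urod and Ppox fell, 2 of 7 against 30.8% called lower. Alad did not pass the test, and Alas2, at 11 counts or fewer in every library, was not tested. For 6 of the 7 the control and heme libraries did not overlap, as for 68.8% of all tested genes. No test set these shares apart from the background. The median log2 fold change of the 7 genes was 0.36, against 0.00 for all tested genes, and the values ran from -0.40 for Ppox to 0.79 for Uros. The called genes thus moved by less than 2-fold in either direction, and neither the mitochondrial nor the cytosolic enzymes moved as a block. Of the mitochondrial ones, Alas1, Cpox and Fech rose and Ppox fell. Of the cytosolic ones, Uros rose, Urod fell and Alad was not called.

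**Figure D1:**
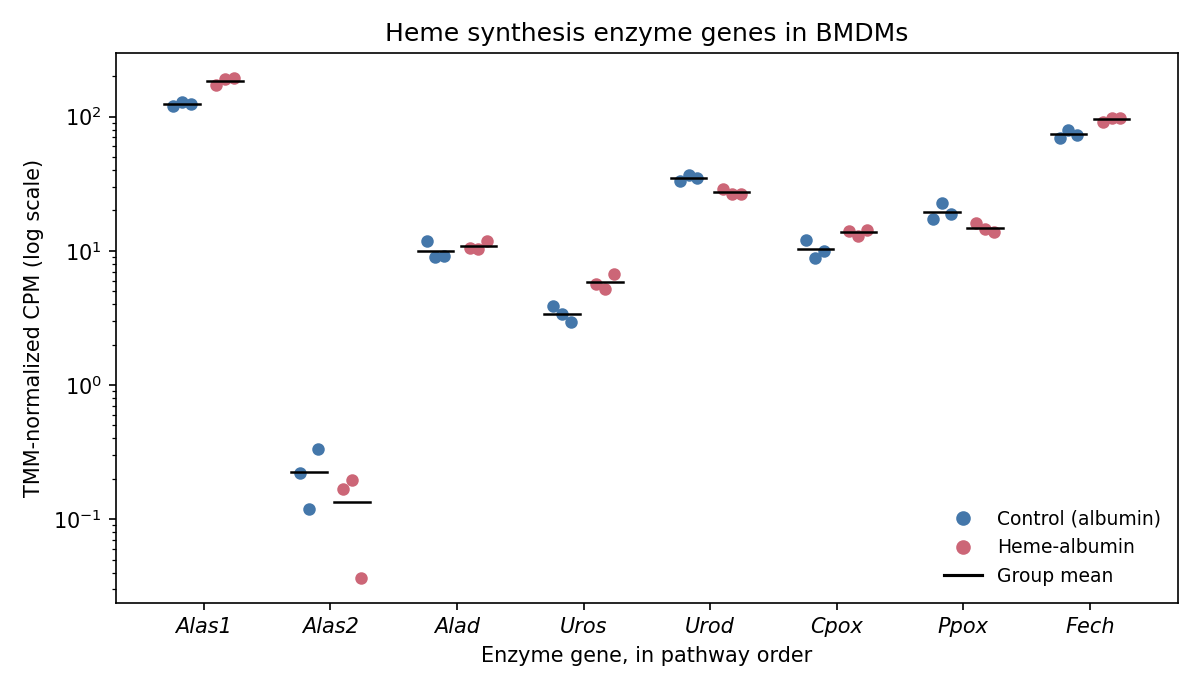
Normalized level of each of the 8 enzyme genes in each library, in pathway order along the x axis (y axis, TMM-normalized CPM on a log scale), with the 3 control libraries in blue, the 3 heme libraries in red and a black line at each group mean. The heme libraries lie above the control libraries for Alas1, Uros, Cpox and Fech and below them for Urod and Ppox, the groups overlap for Alas2 and Alad, and Alas2 lies far below every other gene. CPM is not scaled to gene length.

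Alas1 rose with heme. The gene (ENSMUSG00000032786) lies on chromosome 9 at 106233455 to 106248654 (GRCm38, minus strand). The control libraries held 119.8, 129.1 and 123.3 CPM and the heme libraries 171.2, 191.4 and 194.1 CPM. Each heme library was above each control library. The mean went from 124.1 ± 4.69 to 185.6 ± 12.6 CPM (SD, n = 3 each), a 1.5-fold rise with a log2 fold change of 0.58 (SE 0.069, 95% interval 0.43 to 0.74, adjusted p = 6.54e-05). With library sizes alone the log2 fold change was 0.36 (adjusted p = 0.0014). An antisense transcript, 4930500F10Rik, shares 465 exon bases with Alas1 (7.53% of the exon length), and it has no counts of its own in the data. The libraries were stranded, but the strand setting of the counting is not given in the sources used here, so reads of this stretch may come from either gene.

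Alas2 was near the detection limit in both groups. The gene (ENSMUSG00000025270) lies on chromosome X at 150547375 to 150570638 (plus strand). The control libraries held 8, 4 and 11 counts and the heme libraries 5, 5 and 1 counts, and the groups overlapped. Summed over the libraries these were 23 and 11 counts, a heme-to-control ratio of 0.595 after scaling for depth, with an exact 95% interval of 0.262 to 1.27 that covers counting error only. An exact two-sided permutation test of the levels gave p = 0.4, where 0.1 is the smallest value that 3 against 3 libraries can give. Per exon length, Alas2 made up 0.0485% to 0.696% of the summed RPKM (CPM divided by exon length in kilobases) of Alas1 and Alas2, so nearly all ALAS transcript in every library was Alas1. Even these few counts are uncertain, because 311 exon bases of Alas2 (12.94%) overlap Apex2 on the opposite strand, which held 184 to 350 counts. Markers of erythroid cells were near 0, at 1.55 to 1.83 summed CPM over 14 genes in the control libraries and 1.62 to 2.56 in the heme libraries. Without Sptb, the most abundant of them, the sums were 0.608 to 0.978 in control and 1.07 to 1.72 in heme libraries and did not overlap. Among the 14 genes, Slc4a1, Rhag, Kel, Epb42, Add2 and Hba-a2 had no count in any library. Only 3 of the 14 passed the filter: the beta-globin gene Hbb-bt had 0 counts in each control library and 36, 17 and 27 in the heme libraries, the erythropoietin receptor gene Epor went from 20, 26 and 26 counts to 3, 5 and 1 counts, and 1 gene was not called.

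The DNA before the annotated starts of both ALAS genes is shown because their levels stood so far apart and because both starts have well-known regulators, NRF-1 for Alas1 and GATA-1 for Alas2. RefSeq promoter windows (GRCm38.p6, the 250 bases before each annotated start were used) were searched on both strands for CGCATGCG, the core of the NRF-1 site, and for GATAA, bound by GATA factors. Capitals mark the match in the 30 bases printed. The NRF-1 core lies 194 to 187 bases before a RefSeq start of Alas1 at chr9:106247906-106247935 (minus strand), within annotated exon bases of Alas1, and the window of the other Alas1 start holds none. The letters TTATC before Alas2 are GATAA on the other strand, 86 to 82 bases before its start, at chrX:150547319-150547348 (plus strand).
Alas1: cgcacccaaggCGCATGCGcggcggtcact
Alas2: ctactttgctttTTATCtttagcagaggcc
The NRF-1 core is present in 1.55% of all 32851 promoter windows and GATAA in 22.6%. GATAA also stands in the window of Cpox and in a window of Uros. Fech had no window here and was not searched. The letters TGACNNNGC are the core of the antioxidant response element that NRF2 binds. They stand in 10.2% of all windows and in none of the 10 windows of the other 7 enzyme genes. These matches describe letters only, and binding was not measured.

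Among the cytosolic enzymes, Uros rose, Urod fell and Alad was not called. Alad encodes the dehydratase that joins 5-aminolevulinate molecules into porphobilinogen (ENSMUSG00000028393, chromosome 4, 62509169 to 62519918, minus strand). Its levels were 11.8, 8.95 and 9.11 CPM in control and 10.5, 10.3 and 11.9 CPM in heme libraries, and the groups overlapped. The means were 9.94 ± 1.58 and 10.9 ± 0.872 CPM, and the log2 fold change was 0.13 (95% interval -0.16 to 0.42, adjusted p = 0.409). With library sizes alone its sign turned, to -0.09 (adjusted p = 0.556), and it ran from 0.05 without control replicate 2 to 0.26 without control replicate 1.

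Uros showed the largest log2 fold change of the 7 tested enzyme genes. It encodes uroporphyrinogen III synthase, which closes the tetrapyrrole ring (ENSMUSG00000030979, chromosome 7, 133686243 to 133710072, minus strand). Control libraries held 3.87, 3.40 and 2.93 CPM and heme libraries 5.69, 5.17 and 6.75 CPM, with no overlap. The mean rose from 3.40 ± 0.466 to 5.87 ± 0.803 CPM (n = 3 each), by 1.72-fold (log2 fold change 0.79, SE 0.16, 95% interval 0.43 to 1.14, adjusted p = 0.00179). Of the tested enzyme genes it had the lowest counts and the widest interval. Uros overlaps Bccip, a gene on the opposite strand that was singled out after its values were seen, without any shared exon base. Bccip went from 23.0 ± 1.18 to 40.1 ± 1.28 CPM (log2 fold change 0.80, SE 0.069, adjusted p = 7.86e-06).

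Urod, in contrast, fell. It encodes uroporphyrinogen decarboxylase, the last cytosolic enzyme of the pathway (ENSMUSG00000028684, chromosome 4, 116989965 to 116994413, minus strand). Control libraries held 33.2, 36.7 and 35.1 CPM and heme libraries 28.8, 26.3 and 26.6 CPM, each below every control library. The mean went from 35.0 ± 1.77 to 27.2 ± 1.39 CPM (n = 3 each), a level 1.28-fold higher in control (log2 fold change -0.36, SE 0.072, 95% interval -0.52 to -0.20, adjusted p = 0.00179). With library sizes alone the log2 fold change was -0.58.

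Ppox, the other gene that fell, encodes protoporphyrinogen oxidase of the inner mitochondrial membrane (ENSMUSG00000062729, chromosome 1, 171275990 to 171281186, minus strand). Control libraries held 17.3, 22.7 and 18.8 CPM and heme libraries 16.0, 14.5 and 13.9 CPM, with no overlap. The mean went from 19.6 ± 2.75 to 14.8 ± 1.09 CPM, 1.32-fold higher in control (log2 fold change -0.40, SE 0.11, 95% interval -0.66 to -0.15, adjusted p = 0.0113). Without heme replicate 3 the log2 fold change was -0.36 and the call was lost (adjusted p = 0.0526). Of the exon bases of Ppox, 791 (17.52%) overlap B4galt3 on the opposite strand. B4galt3 held 330 to 534 counts and had a log2 fold change of 0.01 (adjusted p = 0.918).

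The promoters of the 2 genes that fell are printed because they were the only enzyme genes called lower. Both are from RefSeq (GRCm38.p6), minus strand, written 5′ to 3′ and ending at the base before the annotated start, Urod at chr4:116994414-116994663 and Ppox at chr1:171281187-171281436. Capitals mark CCAAT boxes, the letters CCAAT or, for a box on the other strand, ATTGG.
Urod: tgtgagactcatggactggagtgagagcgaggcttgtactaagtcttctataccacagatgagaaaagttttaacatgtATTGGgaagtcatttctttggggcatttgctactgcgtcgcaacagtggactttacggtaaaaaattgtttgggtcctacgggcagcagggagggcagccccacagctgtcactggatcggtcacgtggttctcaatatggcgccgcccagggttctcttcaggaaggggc
Ppox: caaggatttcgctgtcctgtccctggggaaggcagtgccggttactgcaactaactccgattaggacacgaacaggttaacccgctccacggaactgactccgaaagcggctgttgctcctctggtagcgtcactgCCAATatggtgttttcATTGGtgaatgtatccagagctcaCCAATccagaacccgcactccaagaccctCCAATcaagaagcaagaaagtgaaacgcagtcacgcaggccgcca
Urod has 1 box, 171 to 167 bases before the start, and Ppox has 4, at 114 to 110, 98 to 94, 74 to 70 and 45 to 41 bases. At least 1 CCAAT box is present in 33.8% of all windows and 4 or more in 0.84% (276 windows). The cut-off of 4 is the number found in Ppox itself, so the 0.84% is a description and no test of that promoter. The windows of Alad, which was not called, also hold CCAAT boxes.

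Cpox rose, though on fewer counts than Alas1. It encodes coproporphyrinogen oxidase of the mitochondrial intermembrane space (ENSMUSG00000022742, chromosome 16, 58670292 to 58717636, plus strand). Control libraries held 12.1, 8.80 and 10.0 CPM and heme libraries 14.0, 13.0 and 14.4 CPM, without overlap. The mean went from 10.3 ± 1.68 to 13.8 ± 0.758 CPM (n = 3 each), a 1.34-fold rise (log2 fold change 0.42, SE 0.12, 95% interval 0.14 to 0.70, adjusted p = 0.015). The call was lost with library sizes alone (0.20, adjusted p = 0.207), without control replicate 3 (0.40, adjusted p = 0.0509) and without heme replicate 3 (0.39, adjusted p = 0.0591). Gpr15 on the opposite strand shares 204 exon bases (3.06%) and held 0 to 3 counts.

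Fech rose as well. It encodes ferrochelatase, which inserts iron into protoporphyrin IX in the last step (ENSMUSG00000024588, chromosome 18, 64452914 to 64490251, minus strand). Control libraries held 69.5, 79.4 and 73.5 CPM and heme libraries 91.6, 97.3 and 97.1 CPM, each above every control library. The mean went from 74.1 ± 4.97 to 95.3 ± 3.27 CPM (n = 3 each), a 1.29-fold rise (log2 fold change 0.36, SE 0.069, 95% interval 0.21 to 0.52, adjusted p = 0.00127). With library sizes alone it was 0.14 and not called (adjusted p = 0.0879). For each of the 6 called genes, an exact two-sided permutation test on its levels alone gave p = 0.1, the smallest it can give.

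**Figure D2:**
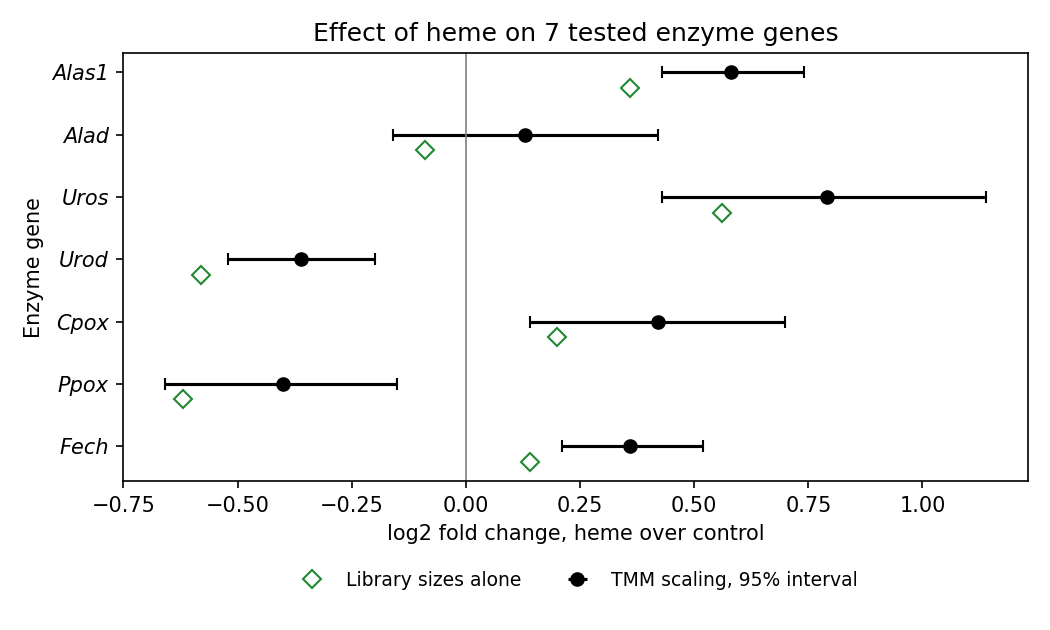
Log2 fold change of heme over control (x axis) for the 7 tested enzyme genes in pathway order, as TMM-based values with 95% intervals (filled points) and values from library sizes alone (open diamonds). Uros (0.79) and Alas1 (0.58) lie farthest to the right and Ppox (-0.40) and Urod (-0.36) to the left of 0, the interval of Alad spans 0, and all diamonds sit to the left of their points.

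Set side by side per exon length, the enzymes spanned a wide range. In control macrophages Alas1 was the most abundant at 20.1 ± 0.76 RPKM, ahead of Urod at 13.5 ± 0.685 RPKM (SD, n = 3). Fech (5.36 ± 0.359), Alad (5.31 ± 0.846) and Ppox (4.34 ± 0.61 RPKM) followed. Fech and Alad, and Alad and Ppox, had overlapping libraries and cannot be ordered. Cpox (1.55 ± 0.253), Uros (0.951 ± 0.13) and Alas2 (0.0939 ± 0.0452 RPKM) were lowest. In the heme libraries no neighbors in the order overlapped, with Alas1 at 30.1 ± 2.04, Urod at 10.5 ± 0.537, Fech at 6.89 ± 0.236 and Alad at 5.82 ± 0.466 RPKM. Ppox was at 3.28 ± 0.242, Cpox at 2.07 ± 0.114, Uros at 1.64 ± 0.224 and Alas2 at 0.0558 ± 0.0356 RPKM. The distance between Alas1 and the next enzyme, Urod, was thus wider in the heme libraries. This order rests on the union of annotated exons, 13838 bases for Fech and 2591 for Urod, and the lengths of the transcripts present were not measured. In CPM, Alas1 was also highest. Fech, however, stood above Urod there, at 74.1 against 35.0 CPM in control and 95.3 against 27.2 CPM in heme libraries. The RPKM values are transcript levels per length and say nothing of enzyme activity.

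The balance between the first enzyme and the later ones was therefore measured within each library, as the log2 ratio of Alas1 counts to those of each other enzyme gene, which does not depend on scaling between libraries. Against Urod, the ratio was 1.85, 1.81 and 1.81 in the control libraries and 2.57, 2.87 and 2.87 in the heme libraries. The difference of 0.94 corresponds to a 1.92-fold shift toward Alas1. Against Ppox, it was 2.79, 2.51 and 2.71 in control and 3.42, 3.72 and 3.80 in heme libraries, a difference of 0.98 or 1.97-fold. Against Fech, it was 0.79, 0.70 and 0.75 in control and 0.90, 0.98 and 1.00 in heme libraries, a difference of 0.21 or 1.16-fold. Against Alad, the mean went from 3.65 ± 0.27 to 4.09 ± 0.11, a difference of 0.44. These 4 ratios did not overlap between groups. Each gave p = 0.1 in an exact two-sided permutation test (0.175 adjusted over the 7 ratios), so none passed a threshold that this design cannot reach. The share of all tested genes with a non-overlapping ratio to Alas1 was not computed, and 68.8% of them did not overlap in level. All 7 ratios share the Alas1 counts and are not independent. For the ratios to Uros, Cpox and Alas2 the groups overlapped. The ratio of Alas1 to Uros went from 5.19 ± 0.22 to 4.98 ± 0.19 (difference -0.21, exact permutation p = 0.2), and its difference ran from -0.33 without control replicate 1 to -0.11 without control replicate 3. The ratio of Alas1 to Cpox went from 3.60 ± 0.29 to 3.75 ± 0.14 (difference 0.15, exact permutation p = 0.6). For Alas2 the ratio rested on few counts and also overlapped, at 9.12 ± 0.74 and 10.47 ± 1.1 (exact permutation p = 0.3).

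**Figure D3:**
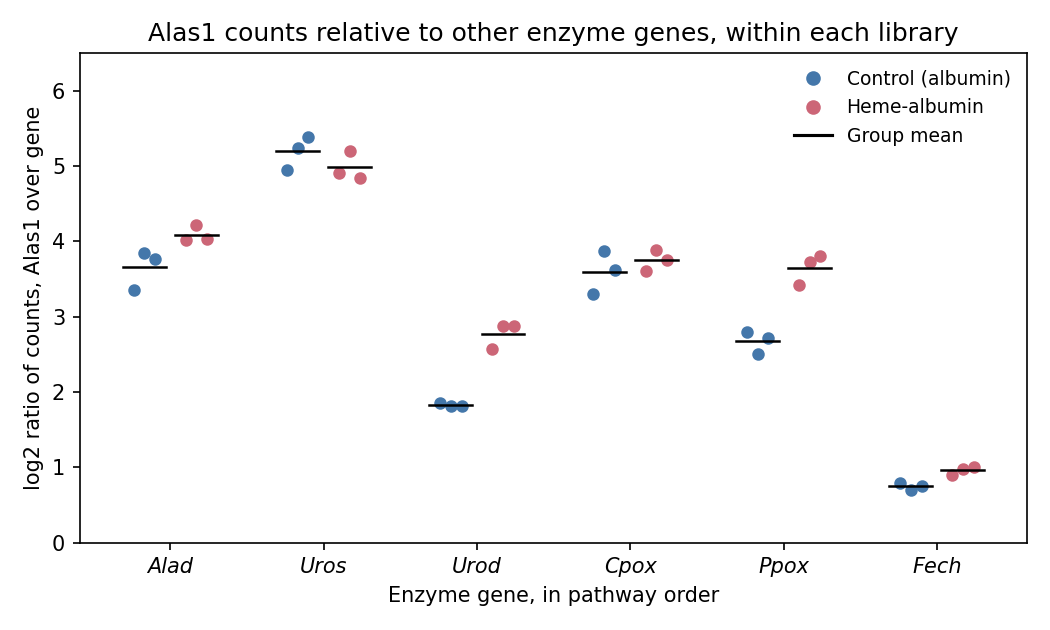
Within-library log2 ratio of Alas1 counts (y axis, with 0.5 added to each count) to the counts of each other tested enzyme gene in pathway order (x axis; Alas2 is not drawn), for the 3 control libraries in blue and the 3 heme libraries in red, with a black line at each group mean. The ratios to Urod, Ppox, Alad and Fech are higher in each heme library than in each control library, and those to Uros and Cpox overlap between the groups.

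The genes whose levels most resembled Alas1 over the 6 libraries, by Pearson r of log2 CPM, were Ubxn8 (r = 0.9974), Snx10 (r = 0.9969) and Sh3kbp1 (r = 0.9968). Among the 8955 genes compared, 2019 had an r above 0.9, and such an r mostly reflects the difference between the groups. Their log2 fold changes were 1.13 for Ubxn8 (adjusted p = 4.38e-06), 0.68 for Snx10 (adjusted p = 1.5e-05) and 0.48 for Sh3kbp1 (adjusted p = 0.000197).

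Of the 8 genes that feed ALAS, 6 rose, 1 fell and 1 was not called, at a median log2 fold change of 0.47. Of all tested genes 31.7% were called higher and 30.8% lower, and the difference of this and the following lists from that background was not tested. Shmt2, which makes glycine in the mitochondrion, went from 35.9 ± 8.21 to 63.9 ± 2.22 CPM (log2 fold change 0.83, adjusted p = 0.000567). Ogdh, a subunit of the 2-oxoglutarate dehydrogenase complex that makes succinyl-CoA, went from 206.4 ± 14.7 to 307.9 ± 1.24 CPM (0.58, adjusted p = 5.96e-05). The subunits of succinyl-CoA ligase, which interconverts succinyl-CoA and succinate, differed. The shared alpha subunit Suclg1 rose (0.52, adjusted p = 4.8e-05) and the GTP-specific beta subunit Suclg2 fell (-0.50, adjusted p = 0.000283). The ATP-specific beta subunit Sucla2 was not called, at 52.8 ± 1.61 and 55.6 ± 0.596 CPM (0.08, adjusted p = 0.29). Of the 3 genes of the mitochondrial proteases that turn over ALAS, Clpp (0.83, adjusted p = 2.39e-05) and Lonp1 (0.43, adjusted p = 0.000736) rose. Clpx, whose product unfolds ALAS for activation or degradation, was not called (0.07, adjusted p = 0.392).

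Genes that move porphyrins, heme and iron at the mitochondrion went both ways, with 5 of 13 higher, 3 lower and 5 not called (median log2 fold change 0.14), near the background of 31.7% higher and 30.8% lower. Abcb6, an ATP-binding cassette protein linked to porphyrin transport, rose far more than any enzyme gene. It went from 29.1, 23.5 and 28.2 CPM to 118.2, 118.4 and 103.6 CPM (log2 fold change 2.07, SE 0.095, adjusted p = 1.33e-07). Pgrmc1, a heme-binding partner of ferrochelatase, rose from 51.3 ± 2.64 to 96.0 ± 5.57 CPM (0.90, adjusted p = 3.68e-06). Slc25a37, mitoferrin-1, which brings iron into the mitochondrion, rose from 36.0 ± 2.75 to 56.3 ± 4.94 CPM (0.65, adjusted p = 0.000135). Slc25a28, mitoferrin-2, was not called, at 16.0 ± 0.323 and 15.0 ± 1.75 CPM (-0.1, adjusted p = 0.425). Abcb10, a mitochondrial transporter that stabilizes mitoferrin-1, was lower at the threshold (-0.34, adjusted p = 0.0487), and its call was lost without control replicate 1 (-0.19, adjusted p = 0.138), control replicate 3 and each heme replicate, among other settings. The number of lower genes fell to 0 when control replicate 3, heme replicate 1 or heme replicate 3 was left out, to 1 without heme replicate 2 and to 2 without control replicate 1, and it was 6 with library sizes alone.

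Ferrochelatase carries an iron-sulfur cluster, and of the genes for the assembly of such clusters 8 of 15 were higher, 2 lower and 5 not called (median 0.25), beside 31.7% higher and 30.8% lower of all tested genes. Lyrm4, a partner of the cysteine desulfurase, went from 7.42 ± 0.587 to 18.1 ± 1.34 CPM (log2 fold change 1.29, adjusted p = 4.24e-06). Hspa9, the mitochondrial HSP70 chaperone, went from 196.8 ± 20.2 to 461.8 ± 7.87 CPM (1.23, adjusted p = 1.15e-06), and Bola3, a late-acting assembly factor, rose by 1.17 (adjusted p = 3.53e-05). Iba57, also a late-acting factor, fell from 8.93 ± 0.639 to 5.78 ± 0.555 CPM (-0.62, adjusted p = 0.00133). With library sizes alone 5 genes were higher and 5 lower. Without heme replicate 1, 5 were higher, and 1 was lower when any 1 of the heme replicates was left out.

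On the side of heme breakdown and sensing, 4 of 9 genes rose, 4 fell and 1 was not called (median 0.08), beside the same 31.7% and 30.8% of all tested genes. Hmox1, heme oxygenase 1, rose from 584.1 ± 57.7 to 20993 ± 694.8 CPM (log2 fold change 5.17, adjusted p = 2.56e-09). Slc48a1, the heme transporter HRG1, rose by 1.73 (adjusted p = 4.1e-08), and Blvra, biliverdin reductase A, fell (-0.63, adjusted p = 1.8e-05). Blvrb, biliverdin reductase B, was more abundant than Blvra in both groups and rose from 307.9 ± 22.4 to 412.5 ± 13.2 CPM (0.42, adjusted p = 0.000629). The log2 fold changes of the enzyme genes were small beside that of Hmox1.

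Of 10 transcription factors and coactivators known to act on Alas1 or Alas2, 3 rose, 3 fell, 1 was not called and 3 did not pass the filter, so that 3 of 7 tested genes went each way, beside 31.7% higher and 30.8% lower of all tested genes. The erythroid factors Gata1, at 0 to 7 counts, and Klf1, at 1 to 6 counts, and the coactivator gene Ppargc1a, at 0 to 3 counts, were not tested. Nfe2, which encodes an erythroid and megakaryocytic factor, went from 1.45 ± 0.248 to 6.14 ± 0.455 CPM (log2 fold change 2.08, adjusted p = 4.07e-06). Nr1d1, which encodes the heme-binding repressor REV-ERBα, rose from 11.2 ± 0.708 to 21.5 ± 1.97 CPM (0.94, adjusted p = 2.47e-05). Its paralog Nr1d2, more abundant in both groups, fell from 93.7 ± 15.2 to 63.8 ± 2.3 CPM (-0.55, adjusted p = 0.00164). Foxo1 fell from 15.0 ± 1.57 to 8.23 ± 1.45 CPM (-0.86, adjusted p = 0.000464). Nrf1, singled out after its values were seen because of the site printed above, fell (-0.33, adjusted p = 0.00559). A link between its transcript level and that of Alas1 was not tested.

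**Figure D4:**
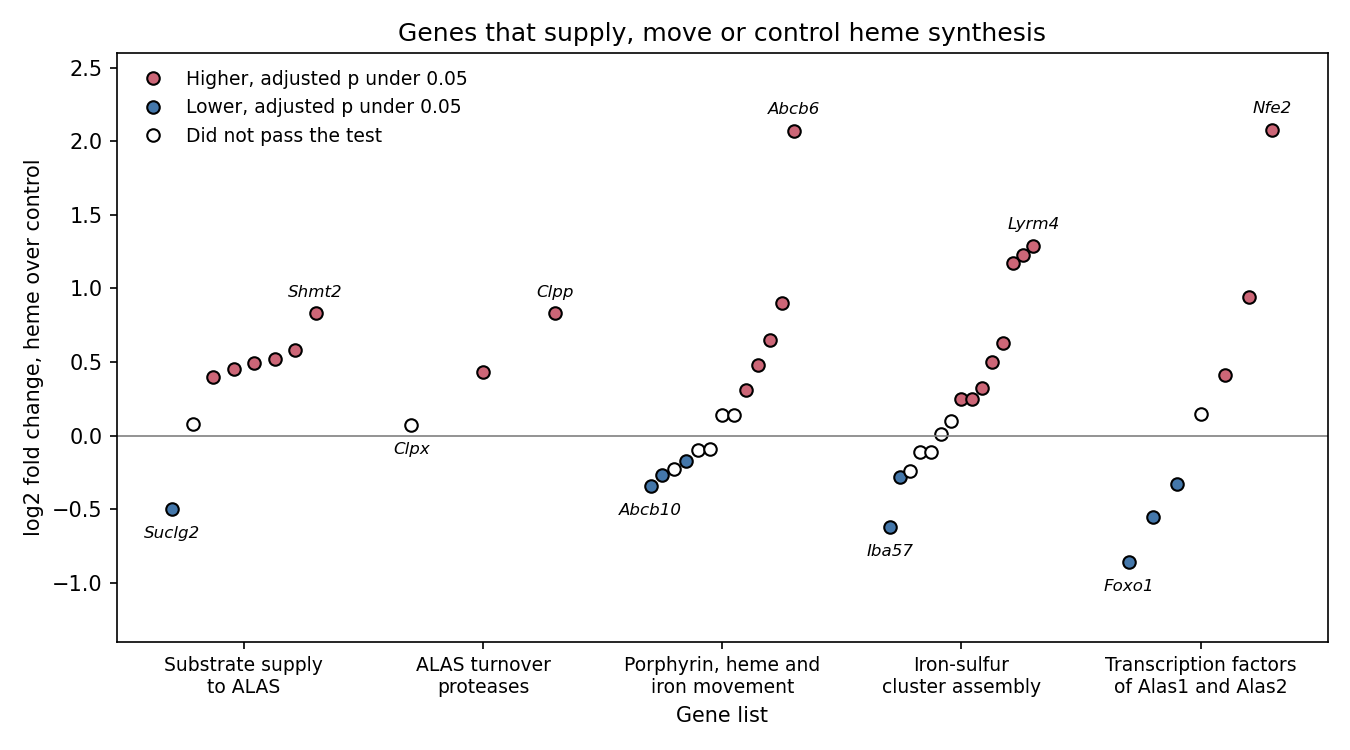
Log2 fold change of heme over control (y axis, TMM-based) for each tested gene of 5 lists around the pathway (x axis: substrate supply, ALAS turnover proteases, porphyrin, heme and iron movement, iron-sulfur cluster assembly, and transcription factors of Alas1 and Alas2), 1 point per gene in order of its value, red for called higher, blue for called lower and white for not called. Each list except the proteases holds genes on both sides of 0 that passed the test, and Abcb6 (2.07) and Nfe2 (2.08) lie highest.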

How the data were processed

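RNA of 3 control and 3 heme-treated BMDM cultures was sequenced as stranded TruSeq libraries from RNA with an integrity number above 9. The authors' files hold counts of reads for each Ensembl gene as whole numbers, deposited without normalization. The submitters' processing notes name STAR 2.7.0, featureCounts and GRCm38.p5; for annotation release, strand setting and read filters the sources used here give nothing. Symbols and positions were taken from GENCODE M21 (25587 of 25700 identifiers matched).

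Counts were analyzed in R 4.3.3 with edgeR 4.0.16 (filterByExpr with a minimum count of 10, TMM, a quasi-likelihood fit by condition with glmQLFit, glmQLFTest, Benjamini-Hochberg adjustment over the 12433 tested genes). The common biological coefficient of variation was 0.0919. The scripts were tested on simulated counts. RPKM used the union of annotated exons. A count of 3 in the shallowest library equals 0.118 CPM. Libraries of a group differed beyond sampling noise (chi-square per degree of freedom 5.99 to 47.9). RefSeq promoter windows were searched for motifs with no test.

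The enzyme genes and the 11 other lists (119 entries with the enzymes, 2 not matched: Fdx2 and Ahsp) were chosen with earlier results of these data known. Named are the enzyme genes, up to 3 called genes of each list with the largest change and 1 of the opposite direction, and the 3 genes most like Alas1 with an average logCPM of at least 3; of the marker lists, mostly counts and sums are given. Gata1, Klf1, Ppargc1a, Clpx, Bccip, Nrf1 and genes overlapping an enzyme gene fall outside this rule. So do Nr1d2, Slc25a28, Sucla2 and Blvrb, which were named after their values were seen. Alternatives were other scalings, DESeq2 1.42.0, limma-voom (limma 3.58.1), other filters, the replicate number as a block and leaving out each library. Other scalings for Alas2, and marker sums without the most abundant gene of each list, were added after seeing the data. A further enzyme gene of the pathway is not reported here.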

Additional observations from a re-analysis of the deposited data

How the results depend on the processing

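The 7 tested enzyme genes gave 105 values under the alternatives, of which 99 kept their direction and side of the threshold. Scaling by library sizes alone changed the most. It gave 2580 genes higher and 5814 lower of all genes, 2 enzyme genes higher, and log2 fold changes of -0.09 for Alad, 0.20 for Cpox and 0.14 for Fech. Alas1, Uros, Urod and Ppox were called under each alternative scaling, tool and filter. When each library was left out in turn, 1 to 2 enzyme genes were lower (1 without heme replicate 3), Cpox ranged from 0.31 to 0.55, Ppox from -0.49 to -0.29 and the difference in the log2 ratio of Alas1 to Cpox from -0.00074 to 0.28. Of 56 values of the ratios, 55 kept their direction. Their side of the threshold could not change, because no exact permutation test here can go below 0.1. Of 300 values of other named genes, 293 kept their direction and side.

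Control and heme libraries share replicate numbers, but the residuals of same-numbered libraries did not go together (correlations -0.0801, -0.124 and -0.0576). With the replicate number as a block, 7164 genes were called, the enzyme genes gave the same 4 higher and 2 lower calls, Alas1 had a log2 fold change of 0.58 (adjusted p = 0.000296), and the lower iron-sulfur genes went from 2 to 1.

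With no filter on low counts, Alas2 had a log2 fold change of -0.74 (edgeR adjusted p = 0.386), and leaving out a library gave level ratios of -1.14 to -0.30 on the log2 scale. Its depth allows no statement on a change. With 3 libraries per group, no exact permutation test can go below 0.1.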
